A study of Mus musculus with 9 samples.

Results

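The genes described here are 42 genes of the cell division cycle, taken as the probe sets whose only gene symbol in the platform annotation is one of them. By role, 26 act in the G2 phase and mitosis, 13 act in DNA replication and nucleotide supply, and 3 are G1 cyclins. A probe set with a single symbol was found for 41 of them (100 of 45101 probe sets), and Ccnb1 was not analysed here. After a filter on low signals (above the median of the array on at least 3 of 9 arrays) 32 genes were tested, of 11984 genes tested in all: 20 of the mitosis genes, 9 of the replication genes and all 3 G1 cyclins. None of the 32 passed the filter through the arrays of 1 group alone. Aurka passed on 5 arrays and Ccne1 on 4, all of them from the 2 cytokine groups.

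RNA came from whole lungs of 9 female C57BL/6 mice aged 14 weeks, 3 per group and 1 array per mouse. All 9 mice had received a replication-deficient adenovirus into the trachea 14 days before. The groups were AdV-IL4 (a virus carrying mouse IL-4), AdV-IL4d2 (a virus carrying mouse IL-4d2, an alternatively spliced form) and AdV-NULL (the same kind of virus with no cytokine gene). The control mice were thus infected too, and no uninfected mice were analysed here. The cytokine was delivered as a gene in a vector, into the airways. Any part of the mouse's own Il4 gene was not tested. The Il4 signal was 338 ± 39.1 in AdV-IL4 mice, 872 ± 343 in AdV-IL4d2 mice and 43.5 ± 27.9 in AdV-NULL mice (SD, n = 3 each).

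A cell that divides copies its DNA in S phase and separates the copies in mitosis. The MCM helicase, ribonucleotide reductase and the sliding clamp PCNA serve the first step. Cyclin-dependent kinase 1 with cyclins A and B, the Aurora and Polo kinases, kinetochore proteins and motor proteins serve the second. D- and E-type cyclins act before both, in G1, where they lead to release of the E2F transcription factors. Most cells of an adult lung are not dividing. IL-4 is a cytokine of type 2 immunity, which supports lymphocyte growth and, in mice, can drive tissue macrophages to divide.

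E2F factors act on genes of the G1 to S transition. Genes of G2 and mitosis are typically controlled through the cell cycle homology region (CHR) by the DREAM and MuvB complexes, together with NF-Y at CCAAT boxes. RefSeq promoters of build GRCm38.p6, from 250 bases before to 50 bases after the start site, were found for 21 mitosis genes and 11 replication genes. They were searched on both strands for the CHR (TTTGAA), the NF-Y box (CCAAT) and an E2F site (TTTGGCGC, TTTGCCGC, TTTCGCGC or TTTCCCGC). A CHR match was present in 16 of 21 mitosis promoters (76.2%), in 1 of 11 replication promoters (9.09%) and in 20.2% of the 27025 promoters in the table. An E2F match was present in 1 of 21 mitosis promoters (4.76%), in 5 of 11 replication promoters (45.5%) and in 2.60% of all promoters. An NF-Y box was present in 90.5% of the mitosis promoters, in 72.7% of the replication promoters and in 41.1% of all promoters. These shares are a description without a test. The matches describe the letters in the window and do not show that a factor was bound.

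**Figure D1:**
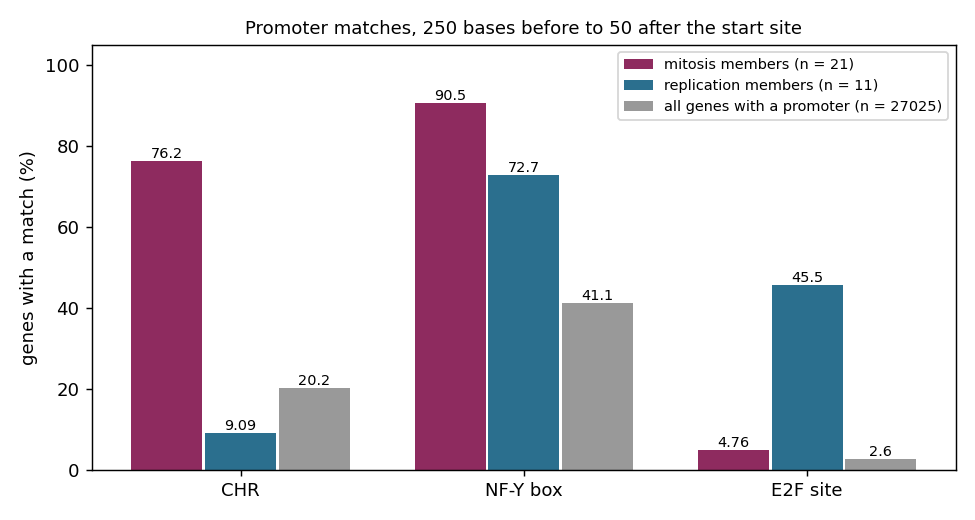
Share of promoters with at least 1 match to each element (y axis, percent of genes), for the mitosis genes, the replication genes and all genes with a promoter in the table. CHR matches were in 76.2% of the mitosis promoters and 9.09% of the replication promoters, and E2F matches in 4.76% and 45.5%.

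The promoters of the 4 genes that passed the test in AdV-IL4 lungs are printed because they hold both kinds of element. Each runs 5′ to 3′ on the gene's own strand, and capitals mark the matches. The first 3 belong to mitosis genes and hold CHR matches with NF-Y boxes, and the last belongs to a replication gene and holds E2F matches with NF-Y boxes.
Mki67, chr7:135716330-135716629, minus strand: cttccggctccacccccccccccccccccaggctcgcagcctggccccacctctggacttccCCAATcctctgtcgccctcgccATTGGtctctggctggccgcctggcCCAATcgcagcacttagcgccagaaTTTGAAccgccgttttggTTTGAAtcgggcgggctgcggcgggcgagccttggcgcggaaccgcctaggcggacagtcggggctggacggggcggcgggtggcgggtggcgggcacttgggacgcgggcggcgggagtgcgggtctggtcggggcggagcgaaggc
Top2a, chr11:99024140-99024439, minus strand: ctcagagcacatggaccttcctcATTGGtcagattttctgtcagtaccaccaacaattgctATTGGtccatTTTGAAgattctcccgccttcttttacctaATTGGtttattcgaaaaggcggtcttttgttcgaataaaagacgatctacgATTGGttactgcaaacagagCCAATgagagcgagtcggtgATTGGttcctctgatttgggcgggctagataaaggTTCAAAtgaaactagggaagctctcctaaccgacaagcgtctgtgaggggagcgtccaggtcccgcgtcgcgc
Cdca8, chr4:124936868-124937167, minus strand: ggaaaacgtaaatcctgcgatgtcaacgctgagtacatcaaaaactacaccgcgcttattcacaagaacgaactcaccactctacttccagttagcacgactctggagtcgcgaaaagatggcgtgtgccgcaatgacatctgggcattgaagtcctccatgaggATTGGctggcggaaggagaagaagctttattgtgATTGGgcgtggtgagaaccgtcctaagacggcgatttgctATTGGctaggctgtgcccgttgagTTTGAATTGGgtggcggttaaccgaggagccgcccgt
Mcm5, chr8:75109259-75109558, plus strand: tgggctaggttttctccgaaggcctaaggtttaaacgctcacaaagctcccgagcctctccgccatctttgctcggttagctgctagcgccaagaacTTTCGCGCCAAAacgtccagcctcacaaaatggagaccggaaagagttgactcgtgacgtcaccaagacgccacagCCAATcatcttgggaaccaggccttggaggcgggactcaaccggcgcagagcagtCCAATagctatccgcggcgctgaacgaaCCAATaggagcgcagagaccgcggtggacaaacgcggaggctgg

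Mki67 has 2 CHR matches and 3 NF-Y boxes, all upstream of the start site. Top2a has 2 CHR matches and 6 NF-Y boxes. Cdca8 has 4 NF-Y boxes and 1 CHR match, which shares letters with 1 of the boxes. In Mcm5 the 2 E2F matches lie on opposite strands and share letters, so they are a single stretch, and 3 NF-Y boxes follow it.

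In AdV-IL4 lungs 4 of the 32 tested genes rose against AdV-NULL and 0 fell. They were Mki67, Top2a and Cdca8 of mitosis and Mcm5 of replication. The test was limma on log2(signal + 16), with Benjamini-Hochberg adjustment over 23824 probe sets and a threshold of 0.05. Of all 11984 genes tested, 6.34% rose and 6.63% fell in this comparison, against 12.5% and 0% of the cell cycle genes. The log2 difference was above 0 for 27 of the 32 genes and for 47.4% of all genes, and its median was 0.25 over the 32 genes and -0.02 over all genes.

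Mki67 encodes Ki-67, the protein that coats mitotic chromosomes and is the usual stain for dividing cells. Its signal was 1024, 995 and 1199 in AdV-IL4 mice, 801, 854 and 750 in AdV-IL4d2 mice, and 349, 862 and 527 in AdV-NULL mice. All AdV-IL4 mice lay above all AdV-NULL mice, but AdV-NULL mouse 2 stood above all 3 AdV-IL4d2 mice. The signal was 1.94-fold higher in AdV-IL4 than in AdV-NULL lungs (log2 difference 0.96 ± 0.23 (SE), limma adjusted p = 0.0228).

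Top2a encodes topoisomerase II alpha, which untangles sister chromatids before they separate. Its signal was 710, 786 and 901 in AdV-IL4 mice, 600, 592 and 734 in AdV-IL4d2 mice, and 318, 621 and 470 in AdV-NULL mice. The AdV-IL4 and AdV-NULL groups did not overlap. The fold was 1.73 (log2 difference 0.79 ± 0.20, limma adjusted p = 0.0251). A second, dimmer probe set gave 0.66 ± 0.30 and did not pass (limma adjusted p = 0.190).

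Cdca8 encodes borealin, a subunit of the chromosomal passenger complex that holds Aurora B at centromeres. Its signal was 349, 388 and 358 in AdV-IL4 mice, 319, 331 and 317 in AdV-IL4d2 mice, and 151, 250 and 176 in AdV-NULL mice. Both cytokine groups lay wholly above AdV-NULL, with a narrow spread, and AdV-IL4 lay wholly above AdV-IL4d2. In AdV-IL4 lungs the signal was 1.86 times that in AdV-NULL lungs (log2 difference 0.90 ± 0.17, limma adjusted p = 0.00776). In AdV-IL4d2 lungs it was 1.65 times that in AdV-NULL lungs and did not pass the test (0.73 ± 0.17, limma adjusted p = 0.0681).

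Mcm5 encodes a subunit of the MCM helicase, which unwinds DNA at replication forks. Its brighter probe set gave 1141, 999 and 922 in AdV-IL4 mice, 682, 705 and 776 in AdV-IL4d2 mice, and 503, 859 and 685 in AdV-NULL mice. AdV-IL4 lay above both other groups without overlap. The fold over AdV-NULL was 1.51 (log2 difference 0.60 ± 0.16, limma adjusted p = 0.0371). The other tested probe set of Mcm5 gave 0.16 ± 0.22 (limma adjusted p = 0.701), so the call rests on 1 of the 2. On that probe set AdV-IL4 overlapped both other groups.

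**Figure D2:**
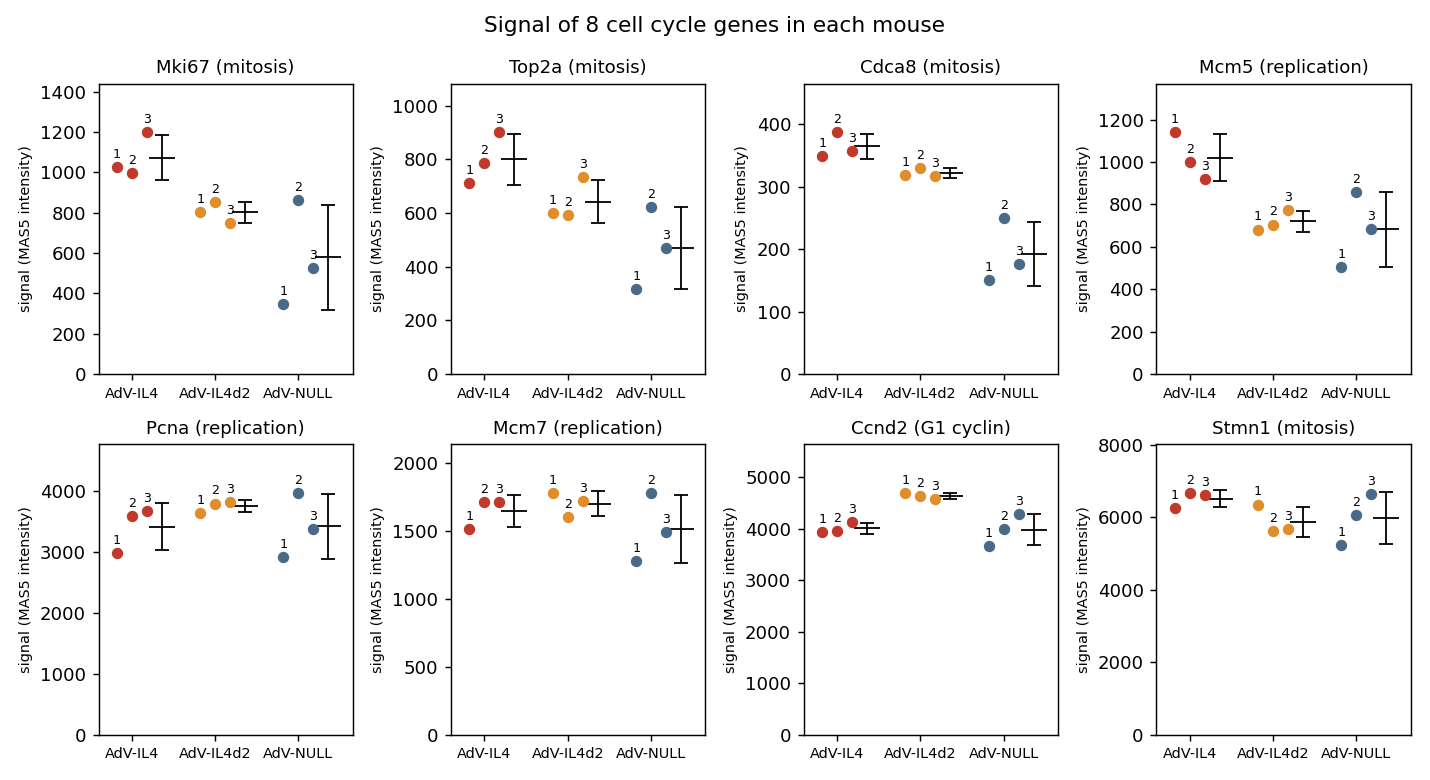
Signal on a linear scale (y axis, MAS5 intensity) of 8 genes in each mouse, for AdV-IL4, AdV-IL4d2 and AdV-NULL. Points are mice, numbered as in the labels, and bars are the group mean ± SD (n = 3). Mki67, Top2a, Cdca8 and Mcm5 in the upper row have AdV-IL4 mice wholly above AdV-NULL mice. Pcna, Mcm7, Ccnd2 and Stmn1 in the lower row have overlapping AdV-IL4 and AdV-NULL groups.

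The other 17 tested mitosis genes did not pass in AdV-IL4 lungs. Their log2 differences ran from -0.17 (Racgap1) to 0.75 (Cdk1), and the median over all 20 was 0.33, with 17 of 20 above 0. Cdk1, the kinase that starts mitosis, came nearest to the threshold. It had a signal of 364, 402 and 435 in AdV-IL4 mice, 255, 217 and 273 in AdV-IL4d2 mice, and 149, 324 and 253 in AdV-NULL mice (0.75 ± 0.23, limma adjusted p = 0.0557). AdV-IL4 was again wholly above AdV-NULL. The same held for Ccnb2 (cyclin B2), Aurka (Aurora A kinase) and Cenpa (the centromeric histone H3 variant), with log2 differences of 0.26 ± 0.17, 0.56 ± 0.22 and 0.31 ± 0.14. In all, 7 of the 20 mitosis genes had AdV-IL4 wholly above AdV-NULL, and 0 wholly below. Over the 32 tested genes, each on its brightest tested probe set, these counts were 10 and 0, against 14.9% and 17.0% of all genes. One of the genes counted, Aurka, passed the filter only on arrays of the cytokine groups, where it was higher. At an unadjusted limma p under 0.05, 10 were higher and 0 lower, against 13.4% and 15.6% of all genes. Read against these shares, the count of higher genes is above the background, and the count of lower genes is below it. The genes were chosen with earlier results of these data known, so this is no independent evidence. Without AdV-NULL mouse 1 only Cdca8 was called.

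The 3 brightest mitosis genes that were not called were Stmn1, Cdc20 and Kif22. Stmn1 encodes stathmin, which destabilises microtubules and is also made in cells that do not divide. It had 6241, 6673 and 6606 in AdV-IL4 mice, 6350, 5609 and 5666 in AdV-IL4d2 mice, and 5225, 6066 and 6635 in AdV-NULL mice. Cdc20, the activator of the anaphase-promoting complex, had 1104, 771 and 930 in AdV-IL4 mice, 723, 842 and 673 in AdV-IL4d2 mice, and 578, 1036 and 622 in AdV-NULL mice. In both genes all 3 groups overlapped. Kif22 encodes a kinesin that pushes chromosome arms. It had 791, 652 and 866 in AdV-IL4 mice, 658, 636 and 558 in AdV-IL4d2 mice, and 378, 746 and 543 in AdV-NULL mice, and AdV-NULL mouse 2 again lay within the AdV-IL4 range. Their log2 differences between AdV-IL4 and AdV-NULL were 0.13 ± 0.10 for Stmn1, 0.35 ± 0.20 for Cdc20 and 0.50 ± 0.20 for Kif22 (limma adjusted p = 0.437, 0.287 and 0.134).

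The remaining mitosis genes were dim or varied within groups. Ube2c, the ubiquitin-conjugating enzyme of the anaphase-promoting complex, had a log2 difference of 0.50 ± 0.21 in AdV-IL4 lungs, Nusap1 (a spindle protein) 0.36 ± 0.23, and Ccna2 (cyclin A2) 0.35 ± 0.22. Birc5 (survivin, another passenger complex subunit) had 0.22 ± 0.18, and Plk1 (Polo-like kinase 1) and Bub1 (a spindle checkpoint kinase) had 0.06 ± 0.24 and 0.06 ± 0.27. Cdca3 was at -0.01 ± 0.24, Tpx2 (a spindle assembly factor) at -0.08 ± 0.29 and Racgap1 (a cytokinesis protein) at -0.17 ± 0.29. The standard errors of the last 5 exceed their differences, so no direction can be read for them at 3 mice per group. Prc1, which bundles the microtubules of the central spindle, differed between its 2 probe sets. The brighter gave 0.24 ± 0.18 and the dimmer 0.69 ± 0.21 (limma adjusted p = 0.425 and 0.0511). On the dimmer of its 2 probe sets Ccna2 gave 0.54 ± 0.18 (limma adjusted p = 0.0700), with AdV-IL4 wholly above AdV-NULL.

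Of the 9 tested replication genes, 8 had a log2 difference above 0 between AdV-IL4 and AdV-NULL, and 3 (Mcm3, Mcm5 and Rrm2) had AdV-IL4 wholly above AdV-NULL. Their median difference was 0.13, against 0.33 for the mitosis genes, and the uncalled ones ran from -0.13 (Mcm2) to 0.44 (Rrm2). Whether the 2 roles differ in this was not tested. Rrm2, the regulated subunit of ribonucleotide reductase, had a signal of 906, 810 and 877 in AdV-IL4 mice, 682, 681 and 573 in AdV-IL4d2 mice, and 490, 797 and 641 in AdV-NULL mice. AdV-IL4 lay just above the highest AdV-NULL mouse, and the difference did not pass (0.44 ± 0.15, limma adjusted p = 0.0888). Mcm3 was likewise wholly higher without passing (0.29 ± 0.10, limma adjusted p = 0.0940). The separation held on 1 of the 4 tested probe sets of Mcm3 and on 1 of the 2 each of Mcm5 and Rrm2. On the others AdV-IL4 overlapped AdV-NULL, with log2 differences of 0.10 to 0.35 for Mcm3 and 0.35 for Rrm2. Rrm1, the large subunit of the same reductase as Rrm2, was at 0.08 ± 0.11. Mcm6 and Mcm2, 2 further helicase subunits, were at 0.13 ± 0.11 and -0.13 ± 0.16. The dimmer of the 2 tested probe sets of Mcm2 gave 0.22 ± 0.17, the opposite sign.

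Pcna was the brightest replication gene, at 2981, 3593 and 3687 in AdV-IL4 mice, 3649, 3802 and 3827 in AdV-IL4d2 mice, and 2920, 3978 and 3378 in AdV-NULL mice. The groups overlapped and the log2 difference between AdV-IL4 and AdV-NULL was 0.00 (95% interval -0.25 to 0.26). Mcm7 had 1509, 1710 and 1714 in AdV-IL4 mice, 1778, 1597 and 1718 in AdV-IL4d2 mice, and 1279, 1776 and 1488 in AdV-NULL mice (0.13 ± 0.12, limma adjusted p = 0.533). These 2 genes thus lacked the separation that Mcm5 had on its brighter probe set. The 4 tested probe sets of Mcm7 ran from -0.05 to 0.46, and on all of them AdV-IL4 overlapped AdV-NULL. Mcm4, another helicase subunit, had 1800, 1585 and 1528 in AdV-IL4 mice, 1348, 1308 and 1307 in AdV-IL4d2 mice, and 1421, 1377 and 1840 in AdV-NULL mice on its brighter probe set. There AdV-IL4 overlapped AdV-NULL, while AdV-IL4d2 lay below both other groups. The dimmer probe set had 881, 837 and 763 in AdV-IL4 mice, 1108, 741 and 752 in AdV-IL4d2 mice, and 999, 1259 and 1112 in AdV-NULL mice, with AdV-IL4 wholly below AdV-NULL. The log2 difference between AdV-IL4 and AdV-NULL was 0.09 ± 0.11 on the brighter and -0.43 ± 0.15 on the dimmer one (limma adjusted p = 0.668 and 0.0903), so they point opposite ways. Of 16 genes with several tested probe sets, 10 had the same sign on all of them in this comparison.

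The G1 cyclins did not pass in any comparison. Ccnd1 (cyclin D1) had 4945, 3938 and 4857 in AdV-IL4 mice, 5633, 5355 and 5915 in AdV-IL4d2 mice, and 5273, 4720 and 5115 in AdV-NULL mice. Ccnd2 (cyclin D2) had 3946, 3953 and 4135 in AdV-IL4 mice, 4700, 4634 and 4579 in AdV-IL4d2 mice, and 3669, 4001 and 4281 in AdV-NULL mice. On these probe sets, the brightest of each gene, the AdV-IL4d2 mice were highest and did not overlap either other group, while AdV-IL4 and AdV-NULL overlapped. AdV-IL4d2 lay wholly above AdV-NULL on 1 of the 3 tested probe sets of Ccnd1 and on 4 of the 6 of Ccnd2, and overlapped it on the others. The log2 difference of AdV-IL4d2 from AdV-NULL was 0.16 ± 0.10 for Ccnd1 and 0.22 ± 0.08 for Ccnd2 (limma adjusted p = 0.495 and 0.214). Ccne1 (cyclin E1) was dim and scattered, at 208, 143 and 232 in AdV-IL4 mice, 165, 236 and 93.3 in AdV-IL4d2 mice, and 70.3, 129 and 143 in AdV-NULL mice. Its log2 difference of AdV-IL4 from AdV-NULL was 0.71 ± 0.34 (limma adjusted p = 0.210), with overlapping groups. That of Ccnd1 was -0.14 ± 0.10 and that of Ccnd2 0.01 ± 0.08.

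**Figure D3:**
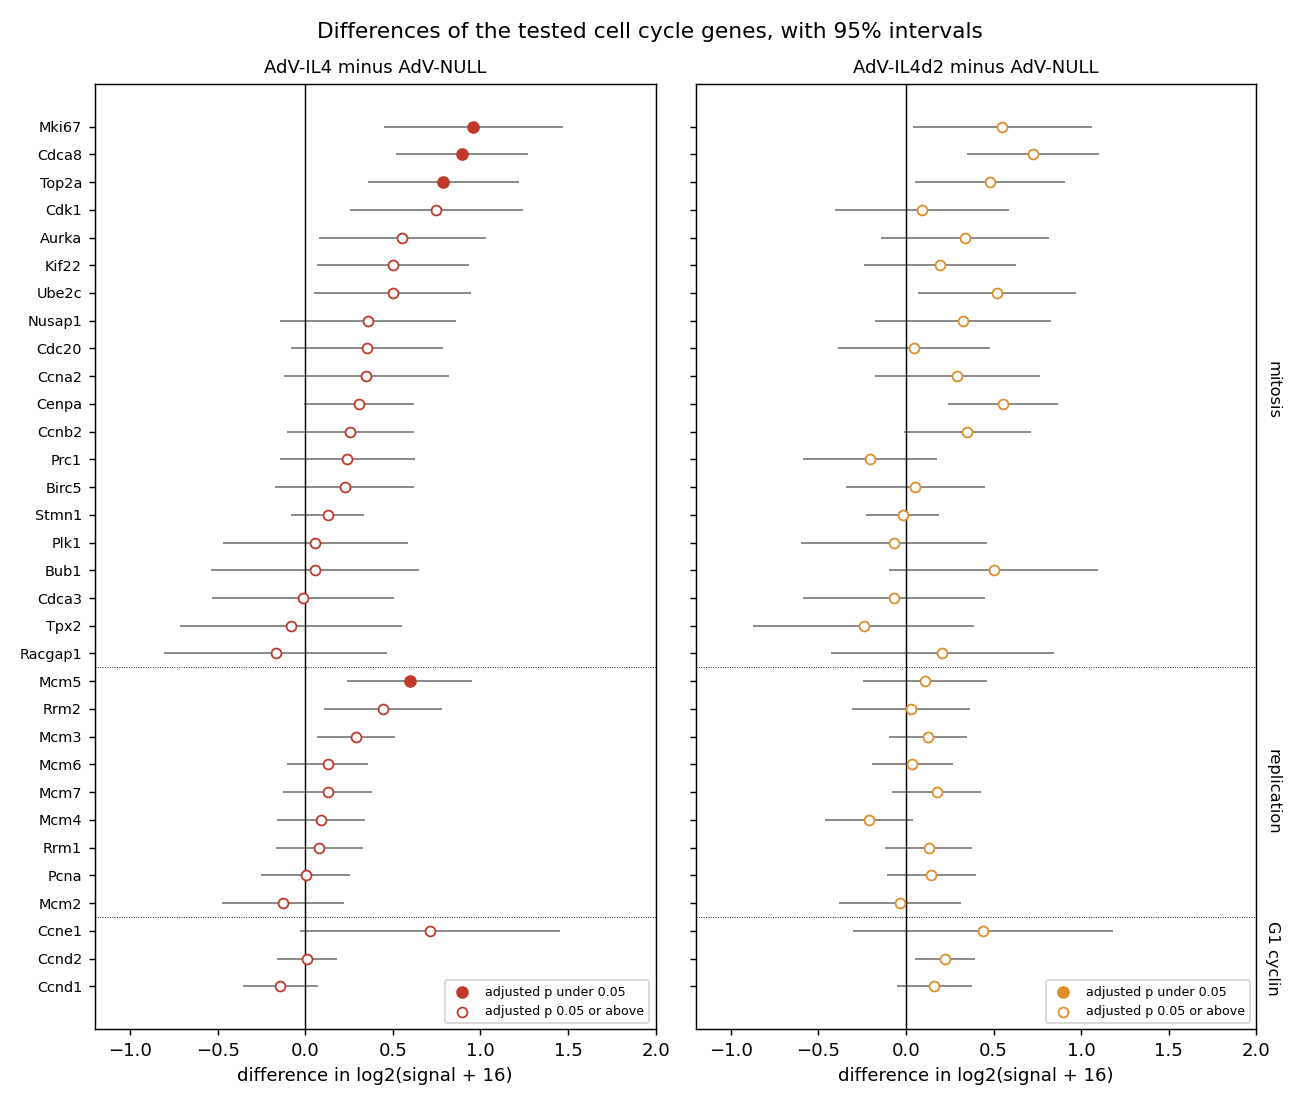
Log2 difference of each tested gene (x axis) with its 95% interval from the fit, for AdV-IL4 minus AdV-NULL (left) and AdV-IL4d2 minus AdV-NULL (right). Filled points have an adjusted p under 0.05. The filled points are Mki67, Cdca8, Top2a and Mcm5 with IL-4, and there are none with IL-4d2.

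With IL-4d2, 0 of the 32 genes rose and 0 fell against AdV-NULL, where 0.859% of all genes rose and 0.401% fell. At an unadjusted limma p under 0.05 the counts were 6 higher and 0 lower, against 8.03% and 7.48% of all genes. AdV-IL4d2 lay wholly above AdV-NULL for 6 genes and wholly below for 1 (Mcm4), against 11.4% and 11.3% of all genes. Median log2 differences were 0.25 for the mitosis genes and 0.11 for the replication genes. Cdca8 had the lowest adjusted p, given above. Cenpa followed, with 361, 346 and 433 in AdV-IL4d2 mice and 250, 279 and 232 in AdV-NULL mice (0.55 ± 0.14, limma adjusted p = 0.0914). The AdV-IL4d2 mice were wholly above AdV-NULL. Mki67 and Top2a overlapped AdV-NULL, at 0.55 ± 0.23 and 0.48 ± 0.20 (limma adjusted p = 0.308 and 0.285). Mcm5 was at 0.11 ± 0.16. Both comparisons use the same 3 AdV-NULL mice, so a low or high control mouse moves both in the same way.

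Between the cytokine forms, AdV-IL4 against AdV-IL4d2, 0 of the 32 genes passed in either direction, where 1.18% of all genes were higher and 1.05% lower with IL-4. At an unadjusted limma p under 0.05 there were 5 higher and 2 lower genes, against 8.22% and 10.3% of all genes. AdV-IL4 lay wholly above AdV-IL4d2 for 8 genes and wholly below for 3 (Ccnd1, Ccnd2 and Cenpa), against 11.1% and 13.0% of all genes. The genes called with IL-4 are therefore not shown to differ between the forms. The log2 difference was 0.41 for Mki67 (95% interval -0.10 to 0.92), 0.31 for Top2a (-0.12 to 0.74) and 0.17 for Cdca8 (-0.21 to 0.55), so differences of up to these sizes remain possible. For Mcm5 it was 0.49 (0.13 to 0.85, limma adjusted p = 0.159) and for Cdk1 0.66 (0.16 to 1.15, limma adjusted p = 0.173). The dimmer tested probe set of Mcm5 gave -0.12 (-0.60 to 0.37), the opposite sign. Ccnd1 had the lowest adjusted p of the 32, with a log2 difference of -0.30 ± 0.10 (limma adjusted p = 0.147). The Il4 signal was 301 to 379 in AdV-IL4 mice and 499 to 1172 in AdV-IL4d2 mice. The form of the cytokine and the level of its transcript thus cannot be told apart in this comparison.

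The AdV-NULL mice differed among themselves more than the mice of the other groups. The mean log2 signal of the 20 mitosis genes was 8.61, 8.63 and 8.76 in AdV-IL4 mice, 8.54, 8.52 and 8.58 in AdV-IL4d2 mice, and 8.03, 8.58 and 8.33 in AdV-NULL mice. That of the 9 replication genes was 10.07, 9.98 and 9.995 in AdV-IL4 mice, 9.91, 9.86 and 9.90 in AdV-IL4d2 mice, and 9.67, 9.98 and 9.86 in AdV-NULL mice. AdV-NULL mouse 1 was lowest on both scales, and was the lowest of all 9 mice for 14 of the 20 mitosis genes and 5 of the 9 replication genes. The SD of the mitosis mean was 0.08 in AdV-IL4 mice, 0.03 in AdV-IL4d2 mice and 0.27 in AdV-NULL mice (n = 3 each).

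**Figure D4:**
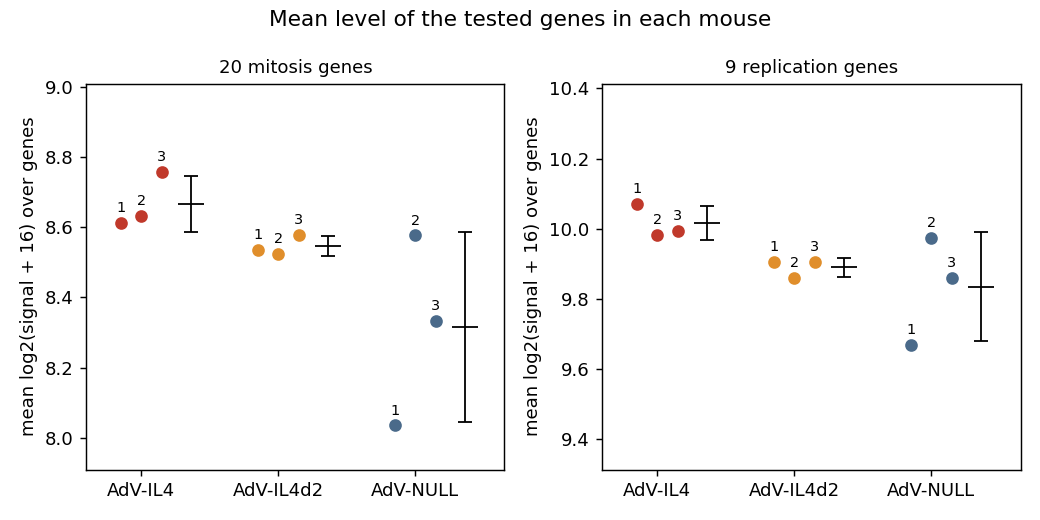
Mean log2(signal + 16) over the 20 mitosis genes (left) and the 9 replication genes (right) in each mouse. Points are mice, numbered as in the labels, and bars are the group mean ± SD (n = 3); the y axes do not start at 0. AdV-NULL mouse 1 lies at 8.03 and 9.67, below every other mouse, and AdV-NULL mouse 2 lies at 8.58 and 9.98.

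Leaving out each of the 9 mice in turn gave between 1 and 9 genes that rose with IL-4 and 0 that fell. Without AdV-NULL mouse 1 the call was left to Cdca8 alone, and the median log2 difference was 0.16 for the mitosis genes and 0.04 for the replication genes. Without AdV-NULL mouse 2 there were 9: Rrm2, Cdk1, Cdc20, Kif22 and Ube2c joined the 4 above. Without AdV-NULL mouse 3 or AdV-IL4 mouse 3 only Cdca8 passed, and without AdV-IL4 mouse 2 there were 2 genes. Cdca8 passed in 9 of these 9 fits (log2 difference 0.75 to 1.09), Mki67 in 6 (0.65 to 1.29), Top2a in 5 (0.54 to 1.01) and Mcm5 in 1 (0.40 to 0.78). Without both AdV-NULL mouse 1 and AdV-IL4 mouse 2 none passed, and Cdca8 had a log2 difference of 0.71 (limma adjusted p = 0.0728). For IL-4d2, leaving out AdV-NULL mouse 2 gave calls for Mki67 and Cdca8, and leaving out AdV-NULL mouse 1 brought the mitosis median to 0.06 and the replication median to -0.02.

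**Figure D5:**
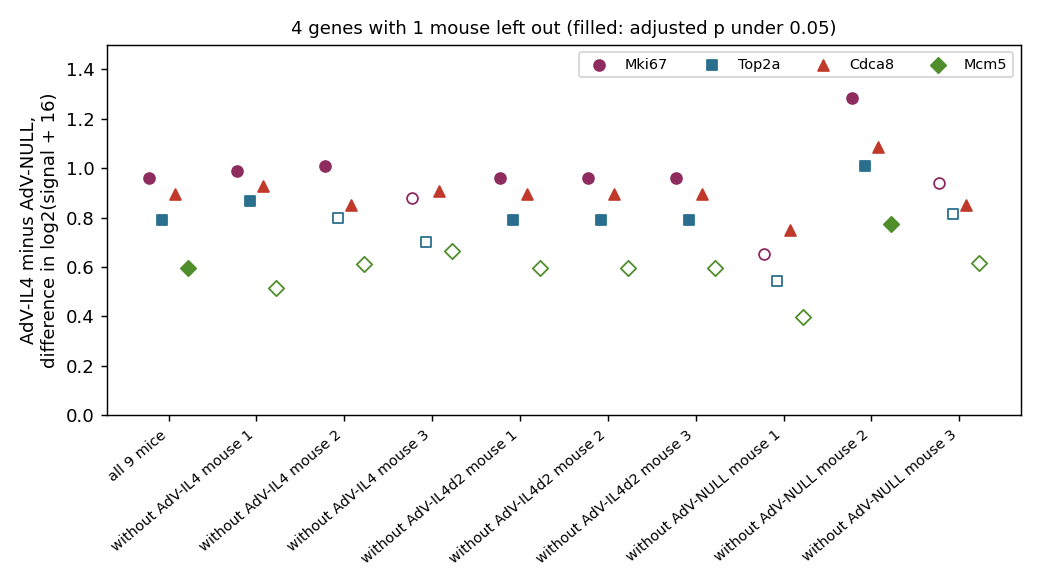
Log2 difference of AdV-IL4 from AdV-NULL (y axis) for Mki67, Top2a, Cdca8 and Mcm5 with all 9 mice and with each mouse left out in turn (x axis). Filled symbols have an adjusted p under 0.05. Cdca8 is filled throughout, and the 4 differences are lowest without AdV-NULL mouse 1 and highest without AdV-NULL mouse 2.

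Markers of other cells moved with the groups. These are whole lungs, in which more cells of a type and more RNA per cell cannot be told apart. Over all genes tested, 6.34% rose and 6.63% fell with IL-4, and 0.859% rose and 0.401% fell with IL-4d2. Summed signals cover every listed marker with a probe set, tested or not. These were 13 for B and plasma cells, 11 for T cells and 12 for macrophages. Of the B and plasma cell markers tested, 9 of 13 rose and 1 fell with IL-4, and their summed signal was 35726 to 45621 in AdV-IL4 mice, 35719 to 57074 in AdV-IL4d2 mice and 22113 to 24067 in AdV-NULL mice. Of the T cell markers 2 of 7 rose with IL-4 (summed signal 2662 to 3027 in AdV-IL4, 2806 to 3077 in AdV-IL4d2 and 1769 to 2224 in AdV-NULL mice). Of the macrophage markers 5 of 11 rose and 2 fell (53888 to 59622 in AdV-IL4, 45796 to 52012 in AdV-IL4d2 and 41944 to 56020 in AdV-NULL mice). With IL-4d2, 5 of 13 B and plasma cell markers and 2 of 7 T cell markers rose, and none of either list fell. Of 3 erythroid progenitor markers, 1 rose with IL-4d2 (Alas2, log2 difference 1.31, limma adjusted p = 0.0274) and 0 passed with IL-4. Germinal centre B cell markers (0 of 3) and thymocyte markers (0 of 2) did not pass with either form. The thymocyte-defining genes Ptcra, Rag1, Rag2 and Dntt stayed below the filter. Of the endothelial markers 2 of 7 rose and 3 fell. Alveolar and airway epithelial markers, which check the labelled tissue, were bright in every mouse (Sftpc 25944 to 41165), and 1 of 12 rose and 1 fell. No marker was listed at 0.

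Striated muscle markers fell with IL-4 in 8 of 10 genes. With IL-4d2, 0 of the muscle, macrophage, endothelial and epithelial markers passed in either direction. The summed muscle signal was 1795 to 7504 in AdV-IL4 mice, 6259 to 21634 in AdV-IL4d2 and 15853 to 75904 in AdV-NULL mice. The value of 75904 belongs to AdV-NULL mouse 1, the mouse with the lowest cell cycle signals. The ratio of the 3′ to the 5′ probe set of Gapdh, a measure of RNA integrity and labelling, was 1.71 ± 0.14 in AdV-IL4 mice, 1.46 ± 0.11 in AdV-IL4d2 mice and 1.28 ± 0.28 in AdV-NULL mice (SD, n = 3 each). It ran from 1.54 to 1.80 in AdV-IL4 mice and from 0.955 to 1.45 in AdV-NULL mice, so these groups did not overlap. AdV-NULL mouse 1 had the lowest Gapdh ratio of the 9 mice, 0.955. The same ratio for Actb was 2.79 to 3.75 in AdV-IL4 mice, 2.34 to 2.79 in AdV-IL4d2 mice and 2.28 to 2.88 in AdV-NULL mice. The spiked poly-A controls had a mean log2 signal of 10.50 to 11.14 in AdV-IL4 mice, 9.72 to 10.02 in AdV-IL4d2 mice and 10.07 to 10.26 in AdV-NULL mice, so AdV-IL4 did not overlap the other groups. The hybridisation controls averaged 12.90 ± 0.28 in AdV-IL4 mice, 12.39 ± 0.17 in AdV-IL4d2 mice and 12.45 ± 0.15 in AdV-NULL mice on the same scale. The part of these markers, of RNA quality and of labelling in the cell cycle differences was not tested. The labels give no batch.

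Related genes outside the 42 were counted in 4 further lists. The shares over all genes were 6.34% risen and 6.63% fallen with IL-4, and 0.859% and 0.401% with IL-4d2. Of 25 other replication genes tested, 0 rose and 0 fell with IL-4 (5 higher at an unadjusted limma p under 0.05), with a median log2 difference of 0.18. The 2 brightest were Slbp, the histone mRNA stem-loop binding protein (0.26 ± 0.11), and Fen1, the flap endonuclease of Okazaki fragment processing (-0.02 ± 0.12). Of 33 other mitosis genes 5 rose and 1 fell, with a median of 0.33. Incenp, the scaffold of the passenger complex that also holds borealin, had 1296, 979 and 929 in AdV-IL4 mice, 638, 657 and 502 in AdV-IL4d2 mice, and 401, 635 and 604 in AdV-NULL mice. It was 1.94-fold higher in AdV-IL4 than in AdV-NULL lungs (0.96 ± 0.18, limma adjusted p = 0.00711). The mean of its tested probe sets gave a smaller difference of 0.31, which did not pass (limma adjusted p = 0.368).

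Cks2 and Cks1b, small subunits bound to cyclin-dependent kinases, rose with log2 differences of 0.62 ± 0.15 and 0.54 ± 0.13, and the condensin subunit Smc2 rose by 0.62 ± 0.12 (limma adjusted p = 0.0229, 0.0244 and 0.00880). Smc4, the partner of Smc2, rose by 0.48 ± 0.10, and Pttg1 (securin, which holds back sister chromatid separation) fell by 0.29 with an SE of 0.08. Smc4 passed with a limma adjusted p of 0.00839 and Pttg1 with 0.0424, and both were named after their values were seen. With each mouse left out in turn, Smc2, Smc4 and Incenp passed in 9 of 9 fits, Cks2 in 6, Cks1b in 5 and Pttg1 in 1, and the replicate block also ended the call of Pttg1 (limma adjusted p = 0.0520). Cks2 and Pttg1 also lost their calls with the mean of all tested probe sets of a gene. With IL-4d2, 0 of the other replication and 0 of the other mitosis genes passed.

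Among 20 tested regulators of the cycle, 3 rose with IL-4 and 0 fell. They were Myc, a growth-promoting transcription factor (0.74 ± 0.18), Lin9, a core subunit of MuvB (0.58 ± 0.14), and Tfdp1, the partner of E2F factors (0.35 ± 0.10). Their limma adjusted p values were 0.0208, 0.0201 and 0.0431. With a mouse left out, Myc and Lin9 each passed in 6 of 9 fits and Tfdp1 in 3, and all 3 calls were lost without AdV-NULL mouse 1. Tfdp1 also lost its call with the replicate block (limma adjusted p = 0.0619). None of the regulators passed with IL-4d2. Among 13 tested inhibitors of the cycle, 3 rose and 2 fell with IL-4. Cdkn1a, which encodes the cyclin-dependent kinase inhibitor p21, had 2028, 1579 and 1717 in AdV-IL4 mice, 1387, 1535 and 1699 in AdV-IL4d2 mice, and 1026, 857 and 785 in AdV-NULL mice. Both cytokine groups lay wholly above AdV-NULL, and both passed (0.99 ± 0.13 with IL-4 and 0.79 ± 0.13 with IL-4d2, limma adjusted p = 0.000725 and 0.00830). With a mouse left out the call with IL-4 held in 9 of 9 fits. The call with IL-4d2 held in 8 and was lost without AdV-IL4d2 mouse 3 (limma adjusted p = 0.0555).

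Btg2, an antiproliferative gene induced by p53, had 2418, 2293 and 2422 in AdV-IL4 mice, 2339, 2029 and 1925 in AdV-IL4d2 mice, and 3243, 4121 and 4231 in AdV-NULL mice. It fell with both forms (-0.69 ± 0.11 with IL-4 and -0.87 ± 0.11 with IL-4d2, limma adjusted p = 0.00280 and 0.00163). With IL-4, Cdkn1c (the inhibitor p57) also fell (-0.66 ± 0.17), while Btg1 and Ccng2, a cyclin linked to arrest, rose (0.52 ± 0.12 and 0.45 ± 0.10). Their limma adjusted p values were 0.0295, 0.0145 and 0.0122. With a mouse left out Cdkn1c passed in 5 of 9 fits, and Btg1 and Ccng2 in 8 each, all 3 losing the call without AdV-NULL mouse 1. Ccng2 also lost its call with the mean of all tested probe sets of a gene, and was named after its value was seen. The inhibitors thus moved in both directions within the same lungs.

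The 9 genes below the filter were the replication genes Tyms, Tk1, Gins2 and Cdc6 and the mitosis genes Aurkb, Bub1b, Cenpe, Kif11 and Kif20a. Their 19 probe sets had signals between 5.65 and 198 over the 9 mice, where the array medians ran from 156 to 171. None was tested. Kif11, the kinesin that separates spindle poles, and Cenpe, a kinetochore motor, came closest, with 2 arrays above the median of the 3 needed. The brightest probe set of Kif11 averaged 162 ± 31.2 in AdV-IL4 mice, 134 ± 5.27 in AdV-IL4d2 mice and 111 ± 13.5 in AdV-NULL mice (SD, n = 3 each), and neither cytokine group overlapped AdV-NULL. On its second probe set, at 140 ± 50.6, 127 ± 8.58 and 116 ± 27.0 in AdV-IL4, AdV-IL4d2 and AdV-NULL mice, both overlapped AdV-NULL. On the remaining one, at 137 ± 32.6, 92.1 ± 21.0 and 87.0 ± 6.52 in that same order, AdV-IL4 alone lay wholly above AdV-NULL.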

How the data were processed

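The table deposited by the authors holds linear intensities of each probe set on 9 Affymetrix arrays of lung RNA. MAS5, GCOS and Affymetrix Expression Console 2.0 appear in the submitters' processing notes, without a statement of what each did. The authors' values had a 2% trimmed mean of 500.002 on every array, so a shift shared by most genes is invisible and directions are relative to each array's typical signal. Depth does not apply to arrays, and 3 arrays per group limit the precision. Replicates are separate mice, per the labels.

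Probe sets above their own array's median on at least 3 of 9 arrays were tested (23824), without control probe sets. The values log2(signal + 16) of all 9 arrays were fitted in 1 model without covariates with limma 3.58.1 (R 4.3.3; lmFit, then eBayes with a variance trend), which was tested on simulated data first. Tests were two-sided, with Benjamini-Hochberg adjustment per comparison over all tested probe sets and a threshold of 0.05. The tested probe set with the highest mean stands for a gene. Fold changes are on the log2(signal + 16) scale, which understates those of dim genes. Errors after log2 differences are standard errors, and errors after signals are SDs.

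The members and all lists (other replication and mitosis genes, regulators, inhibitors and cell type markers) were chosen with earlier results of these data known, so they are no independent evidence. Values per mouse are given for called members and for the 3 brightest uncalled ones of each role. Rrm2, Cdk1, Cenpa and Kif11 were added after their values were seen. From each other list up to 4 called genes per comparison with the largest differences are named, or the 2 brightest. Alternatives changed the pseudocount, the filter, the normalization, the variance model, the probe set rule, the groups fitted, a replicate block and the mice included.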

Additional observations from a re-analysis of the deposited data

Results flagged for a closer look

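Incenp and Myc, 2 genes outside the 42, stood out because their signal differed between AdV-IL4 and AdV-IL4d2 lungs in the direct comparison. The Il4 signal differed between these groups as well. Incenp was 0.81 ± 0.18 (SE) higher on the log2 scale in AdV-IL4 than in AdV-IL4d2 lungs (limma adjusted p = 0.0479), with no overlap between the mice. Leaving out each mouse in turn, it passed in 2 of 9 fits, with differences of 0.67 to 0.90. Over the 20 alternatives its adjusted p ran from 0.0206 to 0.824, the highest with the mean of its tested probe sets, and 0.0687 with the replicate block, which ends the call. Myc had signals of 421, 369 and 396 in AdV-IL4 mice, 269, 211 and 179 in AdV-IL4d2 mice, and 190, 251 and 253 in AdV-NULL mice. It was 0.82 ± 0.18 higher in AdV-IL4 than in AdV-IL4d2 lungs (limma adjusted p = 0.0409) and passed in 3 of the 9 fits with a mouse left out (0.69 to 0.97), with adjusted p from 0.0260 to 0.166 over the alternatives and 0.0670 with the replicate block, which ends this call too.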

How the results depend on the processing

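With IL-4 against AdV-NULL, 4 genes rose. The count was 1 with eBayes without trend, 1 with only the 2 groups compared, 2 with the mean of all tested probe sets of a gene, and 0 without both AdV-NULL mouse 1 and AdV-IL4 mouse 2. It ran from 1 to 9 with a mouse left out. The corresponding count with IL-4d2 ran from 0 to 2, and between the forms it was 0 throughout. No member fell in any comparison under any of the 20 alternatives. The replicate block gave 4 members, as without it, and 2427 probe sets against 2546. It ended 4 calls of single genes: Tfdp1 and Pttg1 for AdV-IL4 against AdV-NULL (limma adjusted p = 0.0619 and 0.0520) and Incenp and Myc for AdV-IL4 against AdV-IL4d2 (0.0687 and 0.0670). Same-numbered mice correlated by -0.07 to 0.12 in their deviations from the group means, so the numbers were not taken as pairs. Of 22 calls over the 3 comparisons for the 32 members and the other cycle genes named, 48 genes in all, 7 held in each fit with a mouse left out, 4 in all alternatives, and 0 changed sign. Over all probe sets, AdV-IL4 against AdV-NULL gave 2546 calls, against 1313 without AdV-NULL mouse 1, 1696 without AdV-NULL mouse 3 and 1068 without both mice named above. AdV-IL4d2 against AdV-NULL gave 314, against 195 without trend and 200 without both mice. AdV-IL4 against AdV-IL4d2 gave 416, against 244 without a filter, 165 without trend and 237 without both mice. With a mouse left out the last 2 ran from 156 to 417 and from 110 to 446. Cdca8, Cdk1 and 7 other members could not be fitted under the filter on all 9 arrays. Genes near the array median have wide errors, which 3 mice per group cannot narrow.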
